A study of Mus musculus with 8 samples.

Results

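The 10 genes described here encode chaperones, folding enzymes and regulators of the endoplasmic reticulum (ER) that are known targets of the unfolded protein response (UPR). They are Hspa5, Hsp90b1, Calr, Creld2, Pdia4, Dnajb9, Sdf2l1, Herpud1, Xbp1 and Manf. They were taken by name as a set, with earlier results of these data known, and are 10 of the 55487 gene identifiers measured. Polyadenylated RNA of the sciatic nerve was sequenced at postnatal day 6 (P6), the age at which Schwann cells of the mouse nerve proliferate, differentiate and form myelin. There were 4 CNP-Cdk7cKO libraries (genotype CNPcre/+ Cdk7lox/lox) and 4 Ctrl libraries (CNP+/+ Cdk7lox/lox). Both groups carried loxP-flanked alleles of Cdk7, the kinase of the transcription factor TFIIH and of the CDK-activating complex. Only the CNP-Cdk7cKO group carried Cre, at 1 Cnp allele, so that recombination is directed by the expression of Cnp, a gene of myelinating glia. Which cells of the nerve had recombined was not measured here. The tissue was the whole nerve, in which Schwann cells lie beside fibroblasts, perineurial cells, macrophages and endothelium. Whether each library came from a separate animal is not stated, so p-values measure only the spread between these libraries.

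In the ER lumen, new secreted and membrane proteins are folded by chaperones and by enzymes that form disulfide bonds. When unfolded proteins build up there, the membrane sensors IRE1, PERK and ATF6 start the UPR, in which spliced XBP1 and cleaved ATF6 raise transcription of chaperone and degradation genes while PERK slows translation. Myelinating Schwann cells make large amounts of membrane protein such as P0 and PMP22, and mutations that misfold P0 are known to activate this response in the peripheral nerve.

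Library totals were 16897242 to 21527891 estimated counts, and mitochondrial genes took 3.32% to 3.74% of them. Levels are given in CPM (counts scaled to the library total after TMM normalization). Cdk7 was at 9.62 to 12.7 CPM in CNP-Cdk7cKO nerves, against 20.6 to 22.2 CPM in Ctrl nerves. Cnp was at 1314 to 1454 CPM in CNP-Cdk7cKO nerves, against 2981 to 3312 CPM in Ctrl nerves. Cre lies at 1 Cnp allele in every CNP-Cdk7cKO library and in no Ctrl library. Effects of Cre or of that allele therefore cannot be told apart from those of Cdk7 loss. Xist, the RNA of the inactive X chromosome, was at 281 to 331 CPM in the 4 CNP-Cdk7cKO libraries and at 305 CPM in Ctrl 1, and at no more than 0.103 CPM in Ctrl 2, 3 and 4. Summed Y-linked genes gave the opposite picture, with 94.35 to 107 CPM in Ctrl 2, 3 and 4 and no more than 0.196 CPM in the other libraries. All 4 CNP-Cdk7cKO libraries were therefore female by their RNA, as was 1 Ctrl library, while 3 Ctrl libraries were male, so that sex is largely confounded with genotype.

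All 10 genes passed the filter on low counts. Of these, 4 genes, Hspa5, Hsp90b1, Calr and Creld2, were higher in CNP-Cdk7cKO than in Ctrl nerves by edgeR's quasi-likelihood test (Benjamini-Hochberg adjusted p under 0.05 over 15056 genes), 0 were lower and 6 were not called; DESeq2 and limma-voom also gave 4 higher and 0 lower, and at an unadjusted p under 0.05 edgeR gave 0 lower. Of all genes tested, 5.07% were called higher, 6.6% lower and 11.7% in either direction. The increases were small, between 12.3% and 20.6%, and the same 4 genes were those whose 4 CNP-Cdk7cKO libraries all lay above every Ctrl library, a separation that 9.34% of all genes showed. The opposite separation was seen in 0 of the 10 genes and in 9.51% of all genes. The log2 fold change was above 0 for 9 of the 10 genes, against 50.7% of all genes tested, and its median was 0.127 over the 10, against 0.003 over all genes. Because the 10 genes were chosen with earlier results of these data known, these shares describe the set and are no independent test. Among the 4295 genes with at least the mean CPM of Creld2, the lowest of the 4, 7.61% were called higher and 10.2% lower. Summed over the 10 genes, CNP-Cdk7cKO libraries held 2155 ± 39.9 CPM and Ctrl libraries 1926 ± 17.7 CPM (SD, n = 4 each), and the 4 called genes made up 79.7% of that sum in CNP-Cdk7cKO and 78.4% in Ctrl.

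These calls have a limit in the design. With Xist or the mean log2 CPM of skeletal muscle markers as a covariate, 0 of the 10 genes were called by edgeR. At an unadjusted p under 0.05 by edgeR, 4 were higher and 0 lower with either covariate. Standard errors were 1.64 times as large at the median with Xist and 1.84 times with muscle markers. Of all genes tested, 0.505% were called higher with Xist as a covariate and 0.624% with muscle markers. In these fits, and with the 5 Xist-positive libraries alone, where Ctrl 1 is the lone control, the log2 fold changes of the 4 genes stayed between 0.14 and 0.28. In bulk tissue, fewer cells of a type and less RNA per cell cannot be told apart, and the same holds for more cells and more RNA.

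**Figure D1:**
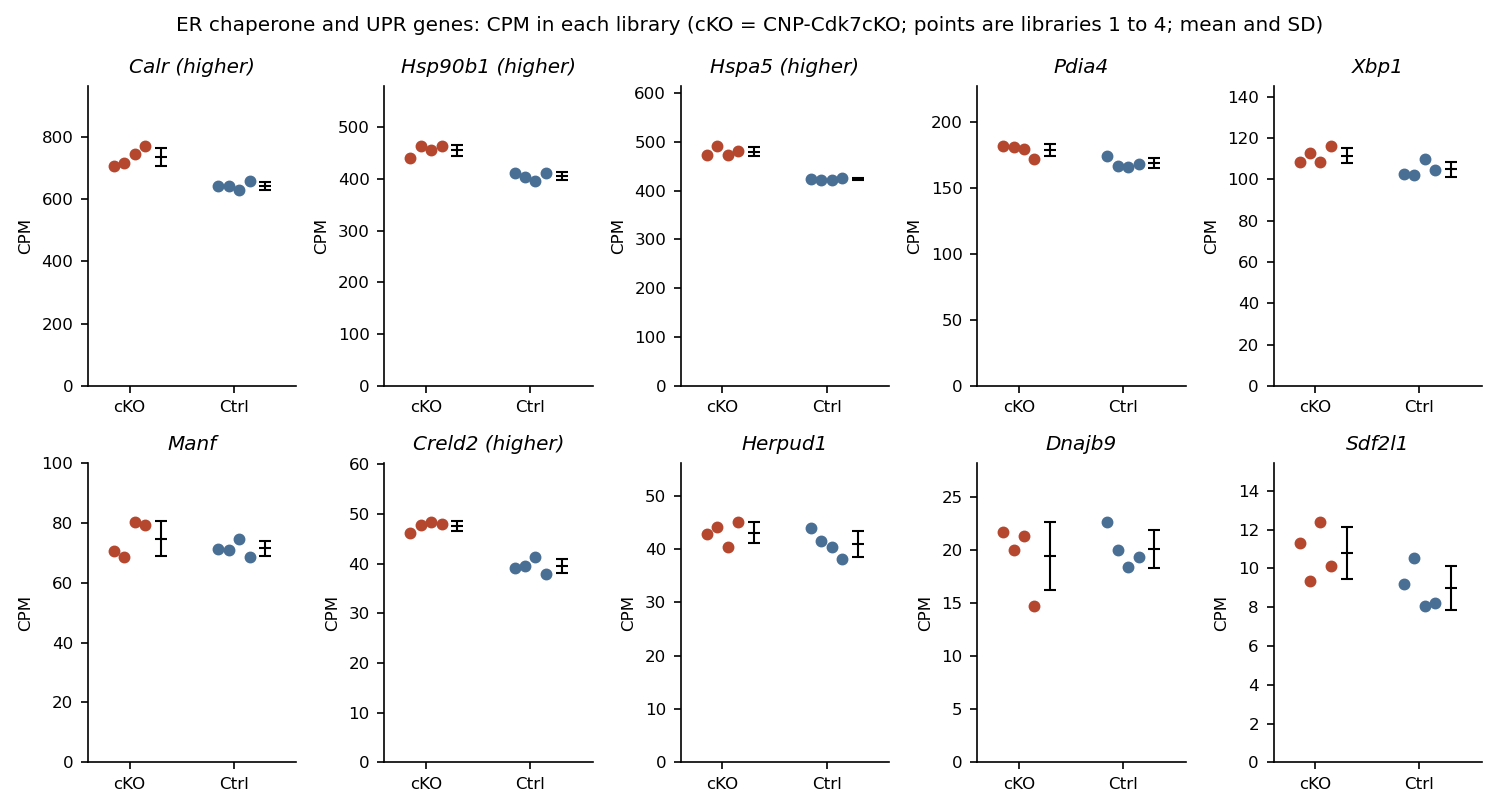
Expression of the 10 ER chaperone and UPR genes in each library, in CPM (vertical axes, 1 panel a gene, each axis with its own range), with CNP-Cdk7cKO libraries left of Ctrl libraries; points are libraries and bars are the mean and SD of 4. The groups are separate for Hspa5, Hsp90b1, Calr and Creld2 and overlap in the other 6 panels.

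Among the lumenal chaperones, Hspa5 encodes BiP, the HSP70 of the ER, which binds unfolded chains and holds the UPR sensors inactive. The gene lies at chr2:34771970-34777547 on the plus strand (GRCm38). It was at 473.5, 491, 472.5 and 482 CPM in CNP-Cdk7cKO 1 to 4, and at 423, 422, 421 and 427 CPM in Ctrl 1 to 4. The lowest CNP-Cdk7cKO library stood above the highest Ctrl library, and the spread within Ctrl was narrow, with a coefficient of variation of 0.557%. The log2 fold change was 0.18 ± 0.03 (SE, 95% interval 0.11 to 0.26; 13.35% higher), with an adjusted p of 0.00727 by edgeR's quasi-likelihood test. Ctrl 1, the female control, was at 423 CPM, within the 421 to 427 CPM of the male controls, as it was for Calr and Creld2, whereas for Hsp90b1 it was the highest control.

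Hsp90b1 encodes GRP94, the HSP90 of the ER, whose known clients include integrins and Toll-like receptors. The gene lies at chr10:86690209-86705509 on the minus strand. It was at 441, 463, 454.5 and 463 CPM in CNP-Cdk7cKO nerves, and at 411, 404, 396 and 410.4 CPM in Ctrl nerves. The groups were again separate, here with CNP-Cdk7cKO 1 nearest to the Ctrl range. Its log2 fold change of 0.17 ± 0.04 (SE, 95% interval 0.09 to 0.25) was an increase of 12.3%, with an adjusted p of 0.0138 by edgeR. Of the 4 calls this was the weakest: without Ctrl 3 its adjusted p was 0.0502. A gene on the opposite strand within it, 1810014B01Rik, held 5.12 CPM in CNP-Cdk7cKO and 5.81 CPM in Ctrl.

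Calr encodes calreticulin, a calcium-binding chaperone that recognises the sugar chains of new glycoproteins. The gene lies at chr8:84841850-84846934 on the minus strand. It was at 706, 717, 746 and 770.2 CPM in CNP-Cdk7cKO nerves, and at 642, 643, 628 and 659 CPM in Ctrl nerves. No Ctrl library reached the lowest CNP-Cdk7cKO library, and CNP-Cdk7cKO 4 was the highest of all 8. Calr rose by a log2 fold change of 0.19 ± 0.04 (SE, 95% interval 0.11 to 0.28), an increase of 14.3% with an adjusted p of 0.0100 by edgeR.

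Creld2 encodes a secreted and ER-resident protein with EGF-like domains that is known to be induced by ER stress. The gene lies at chr15:88819646-88826683 on the plus strand. It was at 46.2, 47.7, 48.3 and 48.0 CPM in CNP-Cdk7cKO nerves, and at 39.05, 39.5, 41.3 and 37.9 CPM in Ctrl nerves. The 4 CNP-Cdk7cKO libraries were close together and all above the Ctrl range. Its log2 fold change, 0.27 ± 0.05 (SE, 95% interval 0.17 to 0.37), was the highest of the 10 genes, an increase of 20.6% with an adjusted p of 0.00425 by edgeR. Each of the 8 libraries held between 638 and 987 counts of Creld2, against 6917 to 10167 of Hspa5.

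The promoters of these 4 genes are shown because they are the members whose window held an exact ER stress response element (ERSE), the element bound by cleaved ATF6 together with the factor NF-Y. A window runs from 250 bases before the annotated start to 50 bases after it (RefSeq, GRCm38.p6), and windows were found for 9 of the 10 genes. They are written 5′ to 3′ on the strand of the gene. The element searched was CCAAT, then 9 bases of any kind, then CCACG. Capitals mark these fixed letters, or their reverse complement where the match is on the opposite strand. The middle match in Hsp90b1 has 1 mismatch.
Hspa5 promoter: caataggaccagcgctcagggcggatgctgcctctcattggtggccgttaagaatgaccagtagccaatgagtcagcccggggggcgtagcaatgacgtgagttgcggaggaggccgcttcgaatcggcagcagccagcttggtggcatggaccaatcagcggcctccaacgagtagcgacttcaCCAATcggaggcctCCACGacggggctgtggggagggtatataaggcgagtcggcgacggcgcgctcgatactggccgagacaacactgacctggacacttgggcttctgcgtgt
Hsp90b1 promoter: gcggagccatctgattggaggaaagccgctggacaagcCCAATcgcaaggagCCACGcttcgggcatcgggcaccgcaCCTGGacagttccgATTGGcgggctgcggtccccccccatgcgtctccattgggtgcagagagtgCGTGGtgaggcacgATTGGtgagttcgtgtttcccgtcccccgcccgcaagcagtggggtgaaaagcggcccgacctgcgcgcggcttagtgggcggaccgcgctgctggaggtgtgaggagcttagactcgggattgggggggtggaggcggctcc
Calr promoter: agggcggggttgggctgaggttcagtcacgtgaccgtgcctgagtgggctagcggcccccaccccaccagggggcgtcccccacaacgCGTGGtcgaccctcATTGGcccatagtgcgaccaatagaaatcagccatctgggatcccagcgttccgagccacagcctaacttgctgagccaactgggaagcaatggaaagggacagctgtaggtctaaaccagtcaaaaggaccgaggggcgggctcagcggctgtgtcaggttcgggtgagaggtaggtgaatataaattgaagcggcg
Creld2 promoter: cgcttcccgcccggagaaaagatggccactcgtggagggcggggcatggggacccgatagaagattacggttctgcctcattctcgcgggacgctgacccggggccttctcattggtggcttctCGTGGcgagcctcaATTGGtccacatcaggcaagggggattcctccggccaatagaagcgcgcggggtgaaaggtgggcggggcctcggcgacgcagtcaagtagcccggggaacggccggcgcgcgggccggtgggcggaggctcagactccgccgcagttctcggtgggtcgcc
The windows are chr2:34771840-34772139 (plus strand) for Hspa5, chr10:86705395-86705694 (minus) for Hsp90b1, chr8:84846882-84847181 (minus) for Calr and chr15:88819396-88819695 (plus) for Creld2. Counted from the RefSeq start as 0, the exact match of Hspa5 lay at -65 to -47 in the sense direction. The RefSeq starts of Hspa5, Hsp90b1 and Calr lie inside the gene spans given above, which came from GENCODE M21. The Hspa5 match, at chr2:34772025-34772043, also lies inside its span, which begins at 34771970. Hsp90b1 had exact matches at -212 to -194 (sense) and at -107 to -89 (antisense). The match of Calr lay at -162 to -144 and that of Creld2 at -126 to -108, both antisense. Searched on both strands, the exact element occurred in 35 of 27025 windows, or 0.13%. A match describes these letters and is not evidence of a bound site.

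The other 6 genes differed less between the groups or varied more within them. Pdia4 encodes ERp72, a disulfide isomerase that works with BiP, at chr6:47796141-47813430 on the minus strand. It was at 182, 181, 179.6 and 172 CPM in CNP-Cdk7cKO nerves, and at 174, 167, 166 and 169 CPM in Ctrl nerves. The groups overlapped only through CNP-Cdk7cKO 4, which was below Ctrl 1. Its log2 fold change was 0.08 ± 0.04 (SE, 95% interval -0.01 to 0.17) and was not called (adjusted p 0.229, edgeR).

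Dnajb9 encodes ERdj4, a J-domain co-chaperone of BiP and a known target of spliced XBP1, at chr12:44205559-44210326 on the minus strand. It was at 21.7, 19.96, 21.3 and 14.7 CPM in CNP-Cdk7cKO nerves, and at 22.6, 19.96, 18.4 and 19.4 CPM in Ctrl nerves. CNP-Cdk7cKO 4 was the lowest of the 8 libraries, and the other 3 CNP-Cdk7cKO libraries lay inside the Ctrl range. Its log2 fold change was -0.05 ± 0.12 (SE, 95% interval -0.30 to 0.21; adjusted p 0.839, edgeR), the only negative value among the 10 genes, and without CNP-Cdk7cKO 4 it was 0.065.

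Sdf2l1 encodes an ER protein that works with J-domain proteins and BiP, at chr16:17130138-17132383 on the minus strand. It was at 11.3, 9.33, 12.4 and 10.1 CPM in CNP-Cdk7cKO nerves, and at 9.18, 10.55, 8.07 and 8.24 CPM in Ctrl nerves. Ctrl 2 lay among the CNP-Cdk7cKO libraries and CNP-Cdk7cKO 2 near the Ctrl libraries. The log2 fold change of 0.26 ± 0.12 (SE, 95% interval -0.01 to 0.53) was close to that of Creld2 but was not called (adjusted p 0.204, edgeR). The libraries held 150 to 248 counts of Sdf2l1 each.

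Herpud1 encodes a membrane protein of ER-associated degradation, at chr8:94386438-94395377 on the plus strand. It was at 42.8, 44.1, 40.4 and 44.95 CPM in CNP-Cdk7cKO nerves, and at 43.95, 41.4, 40.3 and 38.2 CPM in Ctrl nerves. The groups overlapped over most of their range, and the log2 fold change was 0.07 ± 0.06 (SE, 95% interval -0.05 to 0.20; adjusted p 0.459, edgeR). Its promoter window held the related element ERSE-II (ATTGG and CCACG with 1 base of any kind between them), found in 10 windows or 0.037%, and the CARE element (TGATGNAA, bound by ATF4 complexes), found in 4.06% of windows.

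Manf encodes a secreted neurotrophic factor that stays in the ER and is released when calcium stores there are emptied. The gene lies at chr9:106838312-106891979 on the minus strand. It was at 70.45, 68.7, 80.05 and 79.05 CPM in CNP-Cdk7cKO nerves, and at 71.3, 70.9, 74.6 and 68.7 CPM in Ctrl nerves. CNP-Cdk7cKO 3 and 4 were above every Ctrl library, and CNP-Cdk7cKO 1 and 2 were among them. By edgeR the log2 fold change was 0.06 ± 0.06 (SE, 95% interval -0.07 to 0.19; adjusted p 0.544). Its annotated span overlaps Rbm15b on the same strand, at 62.35 CPM in CNP-Cdk7cKO and 61.7 CPM in Ctrl, so reads of the 2 genes may be shared.

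Xbp1 encodes the transcription factor of the IRE1 branch. The gene lies at chr11:5520659-5525893 on the plus strand. It was at 108, 113, 109 and 116 CPM in CNP-Cdk7cKO nerves, and at 103, 102, 110.1 and 105 CPM in Ctrl nerves. Ctrl 3 was above CNP-Cdk7cKO 1 and 3, and the other Ctrl libraries were below all 4. The log2 fold change was 0.09 ± 0.04 (SE, 95% interval -0.01 to 0.19; adjusted p 0.248, edgeR). The active form of XBP1 comes from an mRNA from which IRE1 has removed a short intron of 26 bases, whose length is not a multiple of 3, so that the reading frame changes. That intron, in capitals, lies in exon 4 of Xbp1-201, and the stretch shown is chr11:5524264-5524319 on the plus strand (GRCm38).
Xbp1 intron: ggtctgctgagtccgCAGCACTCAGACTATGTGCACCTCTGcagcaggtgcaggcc
In 0 of the 4 annotated transcripts are these bases annotated as an intron. Counts per gene cannot separate spliced from unspliced Xbp1, and IRE1 activity was not measured here.

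**Figure D2:**
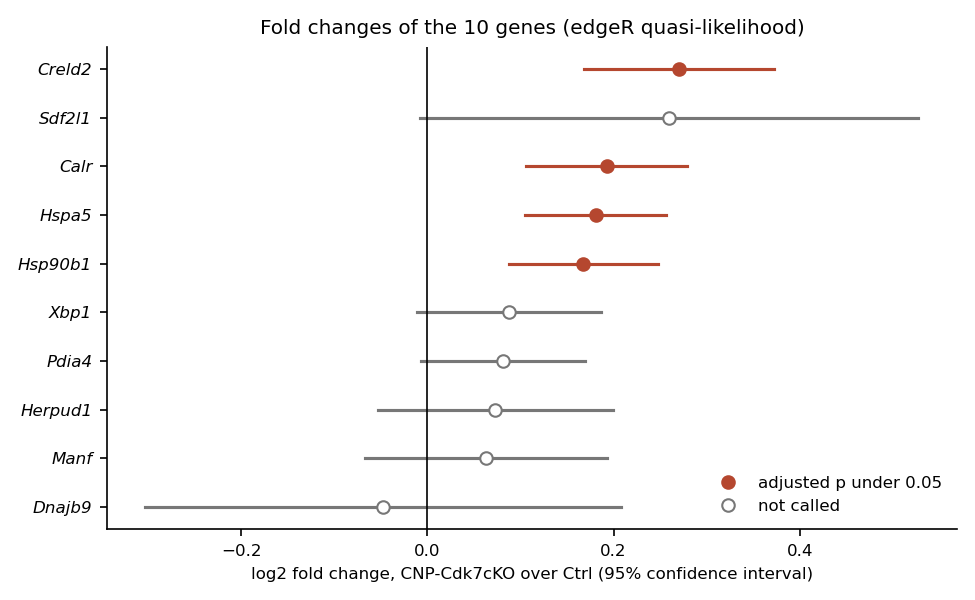
Log2 fold change of CNP-Cdk7cKO over Ctrl for the 10 genes (horizontal axis), as the edgeR estimate with its 95% interval. The intervals of Hspa5, Hsp90b1, Calr and Creld2 lie above 0, and those of Pdia4, Dnajb9, Sdf2l1, Herpud1, Xbp1 and Manf include it.

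Per length of transcript the order of the 10 genes was the same in both groups at the top. Calr stood at 336.5 CPM per kilobase of the principal transcript in CNP-Cdk7cKO and at 294.4 in Ctrl. Hsp90b1 stood at 161 in CNP-Cdk7cKO and 143.5 in Ctrl, and Hspa5 at 131 in CNP-Cdk7cKO and 115 in Ctrl. These abundant chaperones were followed by Pdia4, at 74.5 in CNP-Cdk7cKO and 70.4 in Ctrl, and Xbp1, at 52.4 in CNP-Cdk7cKO and 49.3 in Ctrl. Creld2 stood at 34.8 in CNP-Cdk7cKO and 28.9 in Ctrl, and Manf at 33.2 in CNP-Cdk7cKO and 31.8 in Ctrl, so that these neighbours changed places between the groups, but in CNP-Cdk7cKO they did not differ beyond the spread of the libraries. Herpud1 followed, at 22.06 in CNP-Cdk7cKO and 20.99 in Ctrl. Sdf2l1 (9.73 in CNP-Cdk7cKO, 8.13 in Ctrl) and Dnajb9 (7.89 in CNP-Cdk7cKO, 8.16 in Ctrl) were lowest, and in Ctrl did not differ beyond their spread. They were also the most variable of the 10, with coefficients of variation of 16.6% in CNP-Cdk7cKO and 8.86% in Ctrl for Dnajb9, and 12.4% in CNP-Cdk7cKO and 12.6% in Ctrl for Sdf2l1. CNP-Cdk7cKO 4 was the highest of its group for Calr, Xbp1 and Herpud1 and the lowest for Pdia4 and Dnajb9, so the libraries did not keep 1 order over the 10 genes.

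The genes whose log2 CPM over the 8 libraries was most like the mean standardised profile of the 10 were taken by Pearson's r, as a description, from 12899 genes with at least 2 CPM. They were Traf4 (r = 0.994), Haghl (0.992), S1pr2 (0.988), Ndufb6 (0.982) and Nfkb2 (0.981), each of them called higher in CNP-Cdk7cKO. These values largely restate the difference between the groups, since the 8 libraries fall into 2 groups. With each group's mean taken out, the nearest were Tmem42 (0.976), Clip3 (0.974), Faap20 (0.970), Mpp7 (0.965) and Rtl8c (0.956), a list that holds none of the first 5. Among the 10 genes themselves, the median r of the 45 pairs was then -0.041, from -0.805 to 0.917, with 20 pairs above 0. The mean profile within groups is therefore not a variation that the 10 genes share.

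The other genes of the ER were counted in lists, beside the 5.07% of all genes called higher and 6.6% called lower. Of 33 other ER chaperones and folding enzymes, 7 rose and 1 fell, with a median log2 fold change of 0.12. Sil1, the nucleotide exchange factor of BiP, was at 40.7 ± 1.24 CPM in CNP-Cdk7cKO and 33.3 ± 1.52 CPM in Ctrl (SD, n = 4 each; log2 fold change 0.29). Among the disulfide isomerases, P4hb, which is also a subunit of collagen prolyl hydroxylase, was at 767 ± 34.7 CPM in CNP-Cdk7cKO and 675 ± 7.99 CPM in Ctrl (0.18). Pdia5, another isomerase, was at 54.9 ± 3.83 CPM in CNP-Cdk7cKO and 43.8 ± 3.04 CPM in Ctrl (0.33). Serpinh1, the collagen chaperone HSP47, was at 1478 ± 19.7 CPM in CNP-Cdk7cKO and 1322 ± 45.8 CPM in Ctrl (0.16). Ero1l, Fkbp11 and Prdx4 were the other genes that rose, and Fkbp2, a prolyl isomerase, fell, with 24.8 ± 1.49 CPM in CNP-Cdk7cKO and 30.5 ± 0.907 CPM in Ctrl (-0.30). Hyou1, the other exchange factor of BiP, was at 137 CPM in CNP-Cdk7cKO and 126 CPM in Ctrl (adjusted p 0.104, edgeR), and Canx, the membrane-bound relative of calreticulin, at 327 CPM in CNP-Cdk7cKO and 325 CPM in Ctrl (adjusted p 0.947). Without Ctrl 2, 4 genes of this list were called higher.

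Of the 12 sensors and transducers of the UPR, 1 rose and 0 fell, with a median of 0.04. This was Creb3l1 (OASIS), an ER-bound factor known from collagen-producing cells, with 177 ± 9.66 CPM in CNP-Cdk7cKO and 138 ± 10.9 CPM in Ctrl (SD, n = 4 each; log2 fold change 0.37, adjusted p 0.00413, edgeR). The sensors themselves were not called. Ern1 (IRE1) was at 11.8 CPM in CNP-Cdk7cKO and 12.1 CPM in Ctrl, Eif2ak3 (PERK) at 39.1 CPM in CNP-Cdk7cKO and 38.4 CPM in Ctrl, and Atf6 at 29.7 CPM in CNP-Cdk7cKO and 33.2 CPM in Ctrl.

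Of the 17 tested genes of the PERK arm and the integrated stress response, 5 rose and 0 fell, with a median of 0.13. Sesn2, which restrains mTORC1, was at 31.2 ± 3.38 CPM in CNP-Cdk7cKO and 8.97 ± 0.509 CPM in Ctrl (SD, n = 4 each; log2 fold change 1.80). Gdf15, a stress-induced cytokine, was at 0.698 to 1.04 CPM in CNP-Cdk7cKO and 0 to 0.141 CPM in Ctrl. Ppp1r15a, the phosphatase subunit that reverses the PERK signal, was at 185 ± 9.69 CPM in CNP-Cdk7cKO and 156 ± 4.47 CPM in Ctrl (0.25). Ddit4 (0.41) and Eif2s1, the substrate of PERK, also rose. Sesn2, Gdf15 and Ddit4 are known targets of p53 as well as of this pathway. Atf4, the central factor of the arm, was at 181.5 ± 8.35 CPM in CNP-Cdk7cKO and 194 ± 7.28 CPM in Ctrl (adjusted p 0.218, edgeR), and its partner and target Ddit3 (CHOP) at 11.1 CPM in CNP-Cdk7cKO and 9.77 CPM in Ctrl (adjusted p 0.379). Trib3, Chac1, Asns and Atf3, other known targets of ATF4, were not called, and Fgf21 was at 0 in every library.

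Of 23 tested genes of ER-associated degradation, 0 rose and 1 fell, by edgeR, DESeq2 and limma-voom alike, with a median of -0.01, and 3 were higher at an unadjusted p under 0.05 by edgeR. The gene that fell was Sel1l, the partner of the ligase HRD1, with 108 ± 2.52 CPM in CNP-Cdk7cKO and 120 ± 3.63 CPM in Ctrl (SD, n = 4 each; log2 fold change -0.15, adjusted p 0.0449, edgeR), a call that was lost with any library left out except Ctrl 3. In translocation and signal processing, 6 of 32 genes rose and 0 fell, with a median of 0.08. They included the oligosaccharyltransferase subunits Ddost (0.22), Rpn2 (0.19) and Dad1 (0.21) and the translocon-associated Ssr2 (0.25), but the count was 1 without Ctrl 2 and 2 without Ctrl 3. In transport between ER and Golgi, 2 of 25 rose, Sec23b (0.17) and Surf4 (0.14), and 0 fell, with a median of 0.03. With 1 library left out, 0 or 1 was called higher, and 1 was called lower without CNP-Cdk7cKO 4. DESeq2 and limma-voom each called 1 lower, and at an unadjusted p under 0.05 edgeR gave 2 lower.

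Chaperones outside the ER were counted for comparison. Of 20 cytosolic heat shock genes 4 rose and 2 fell, with a median of 0.04. The stress-induced HSP70 genes Hspa1a and Hspa1b, whose near-identical sequences may share reads, summed to 32.1 ± 2.08 CPM in CNP-Cdk7cKO and 18.9 ± 1.46 CPM in Ctrl (SD, n = 4 each). Stip1 (HOP), the co-chaperone that links HSP70 to HSP90, was at 99.7 ± 1.81 CPM in CNP-Cdk7cKO and 87.6 ± 2.56 CPM in Ctrl (log2 fold change 0.19), and was not called without Ctrl 2. Cryab, a small heat shock protein, fell by 0.24 on the log2 scale, with 839 ± 41.9 CPM in CNP-Cdk7cKO and 989.5 ± 39.0 CPM in Ctrl. Of this list 1 gene was called higher without Ctrl 2 and 2 without CNP-Cdk7cKO 1, CNP-Cdk7cKO 2 or Ctrl 3, and 1 lower without Ctrl 2 or CNP-Cdk7cKO 2, 3 or 4. Of 13 mitochondrial chaperones 1 rose, Hspa9 (0.18), with a median of 0.09. Hspa9 was not called without CNP-Cdk7cKO 2, Ctrl 2 or Ctrl 3, and 2 genes were called without CNP-Cdk7cKO 1 or Ctrl 4. Of all genes in these 8 lists, 2, Sesn2 and Hspa1b, were called in each of the fits with Xist or muscle markers as a covariate or with the Xist-positive libraries alone. The log2 fold change of Sesn2 was 1.79, 2.02 and 1.79 in those fits, and that of Hspa1b was 0.90, 0.86 and 0.92.

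**Figure D3:**
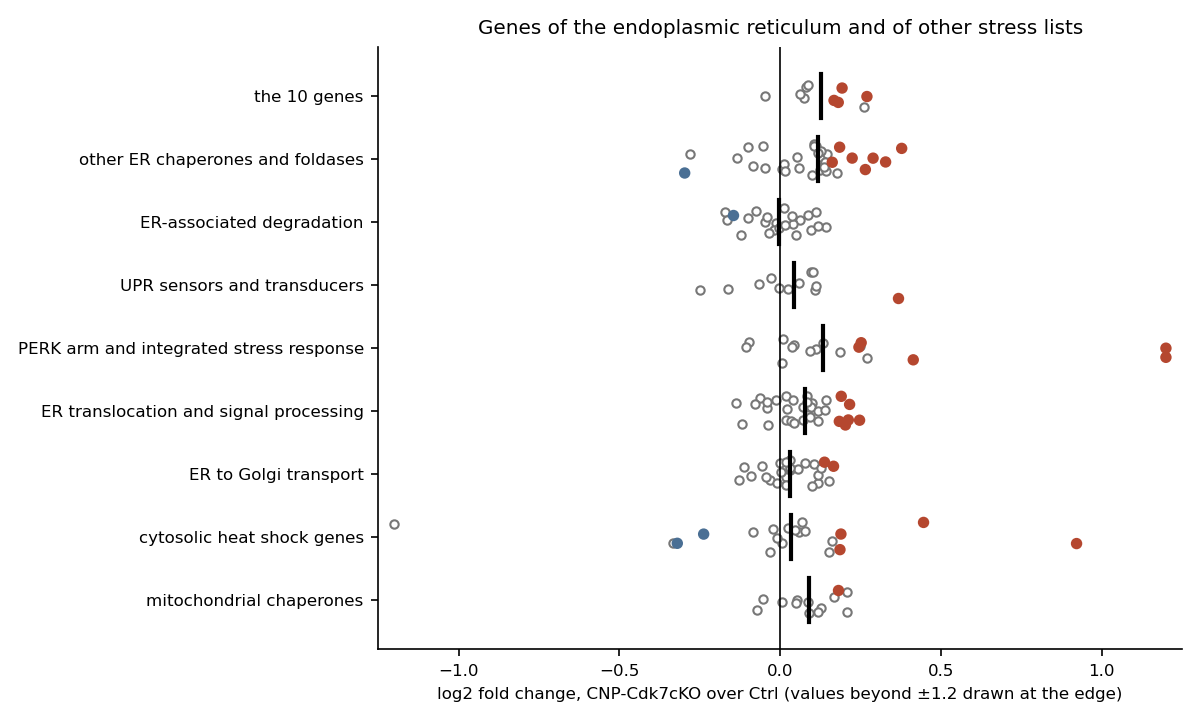
Log2 fold change of CNP-Cdk7cKO over Ctrl for each tested gene (horizontal axis) of the 10 described genes and of the related lists (rows); filled points were called, short bars are list medians, and 3 genes beyond 1.2 in size are drawn at the edge. The median of the 10 genes is 0.127, and that of ER-associated degradation is near 0.

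Promoter elements of other genes were set beside the same fold changes. Of the 35 genes whose window held an exact ERSE, 17 were tested, and 4 of these, or 23.5%, were called higher and 0 lower. All 4 were Hspa5, Hsp90b1, Calr and Creld2. Of the other 13, 0 were called by edgeR, where 2 were higher and 3 lower at an unadjusted p under 0.05, and their median log2 fold change was -0.01. DESeq2 called 1 of the 13 higher and 2 lower, and limma-voom 0. The 13 include Canx, given above, and Dnajc3 (P58IPK), a co-chaperone of BiP, at 68.2 CPM in CNP-Cdk7cKO and 72.2 CPM in Ctrl. Pdia6, a disulfide isomerase, was at 229.9 CPM in CNP-Cdk7cKO and 208 CPM in Ctrl, and Syvn1, the ligase HRD1, at 87.5 CPM in CNP-Cdk7cKO and 86.7 CPM in Ctrl. Of 210 tested genes with 1 mismatch in the element, 6.19% were called higher, close to the 5.32% of genes with neither. Allowing 1 mismatch, the element occurred in 1.52% of windows and in 6 of the 9 member windows, Pdia4 and Herpud1 being added, and the UPRE (TGACGTGG, bound by XBP1) occurred in 0 of the 9, against 0.607% of all windows. That a motif is missing says only that these letters are not in the window.

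**Figure D4:**
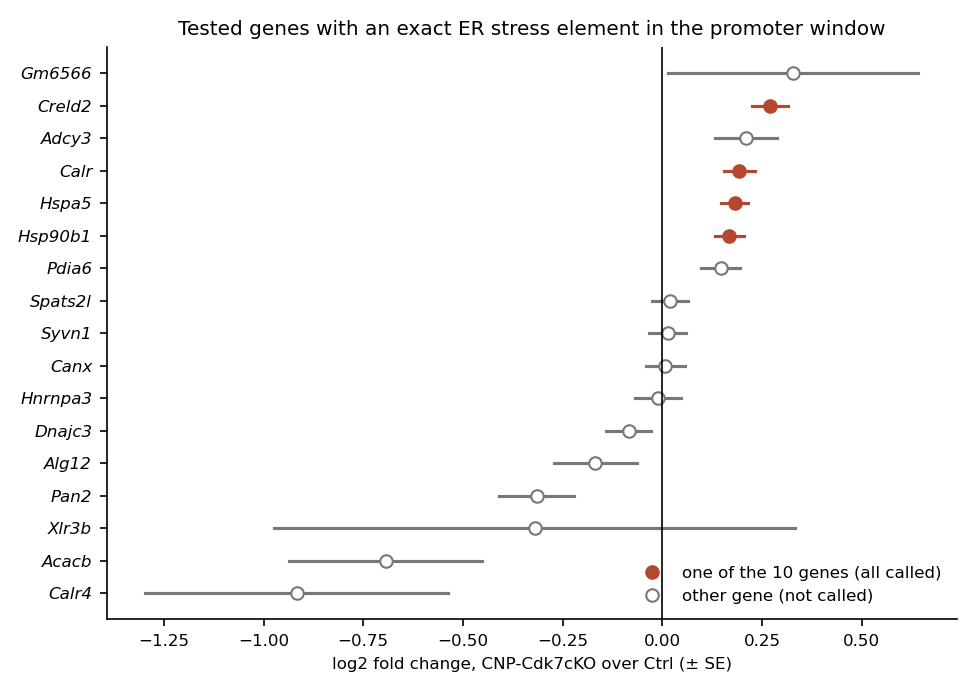
Log2 fold change of CNP-Cdk7cKO over Ctrl (horizontal axis, estimate ± SE) for the 17 tested genes whose promoter window holds an exact ERSE. The 4 called genes, Hspa5, Hsp90b1, Calr and Creld2, lie between 0.17 and 0.27, and the other 13 lie on both sides of 0.

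Markers of some cell types of the nerve moved with the groups, and those of others overlapped. All 10 Schwann cell markers were tested, 7 fell and 0 rose, and their summed level was 92940 to 102400 CPM in CNP-Cdk7cKO, against 125300 to 140500 CPM in Ctrl. Of 9 fibroblast and perineurial markers 2 rose, Col1a1 and Pdgfra, and 0 fell by edgeR, while DESeq2 called 3 and limma-voom 4 higher. The log2 fold change was above 0 for all 9 of these markers, with a median of 0.15. Their sum was 48590, 51580, 45370 and 45520 CPM in CNP-Cdk7cKO 1 to 4, and 44990, 43460, 39530 and 39560 CPM in Ctrl 1 to 4. The summed level of the 4 called ER genes was 1667, 1719, 1721 and 1763 CPM in CNP-Cdk7cKO, and 1516, 1509, 1486 and 1533 CPM in Ctrl. Both sums were separate between the groups. CNP-Cdk7cKO 4 had the highest ER sum with one of the lower fibroblast sums of its group, while Ctrl 3 was the lowest library in both. Most of the fibroblast sum came from Col1a1, Col3a1 and Col1a2, at 18730, 15120 and 11770 CPM in CNP-Cdk7cKO. Whether the sums follow each other within a group was not tested. Of 8 macrophage markers 3 rose by each of these tools, and 1 fell by DESeq2 and by limma-voom, with sums of 350.3 to 428 CPM in CNP-Cdk7cKO and 302 to 376 CPM in Ctrl, which overlap.

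Of 20 skeletal muscle markers 19 fell by edgeR and by DESeq2, and 5 by limma-voom, which was run with quality weights for the libraries. Their sums were 118 to 707 CPM in CNP-Cdk7cKO and 654 to 6326 CPM in Ctrl. The 7 plasma cell markers, genes of a cell type that expresses many of these ER genes strongly, summed to 53.2 to 61.4 CPM in CNP-Cdk7cKO and 44.4 to 50.8 CPM in Ctrl, without overlap. Of the 4 tested 1 rose, Sdc1, with 42.8 ± 2.96 CPM in CNP-Cdk7cKO and 34.65 ± 1.10 CPM in Ctrl (SD, n = 4 each). Sdc1, which is also made by other cell types, made up most of the sum in both groups. Ighm was at 11.4 ± 1.02 CPM in CNP-Cdk7cKO and 8.855 ± 2.15 CPM in Ctrl and was not called (adjusted p 0.162, edgeR). Irf4 (log2 fold change -0.35) and Prdm1 (-0.27) were lower in CNP-Cdk7cKO but not called, and Jchain, Mzb1 and Igkc reached at most 0.245 CPM in any library. Of 7 endothelial markers 0 were called by edgeR (1 lower at an unadjusted p under 0.05, and 1 lower by DESeq2 and by limma-voom), of 4 tested adipocyte markers 0 by any of these tools or at that p, and 1 of 5 tested mast cell markers, Tpsb2, fell. No marker was at 0 in every library. The fits with muscle markers or Xist as a covariate are given above, and the part of cell type proportions in the higher levels of Hspa5, Hsp90b1, Calr and Creld2 was not tested.

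**Figure D5:**
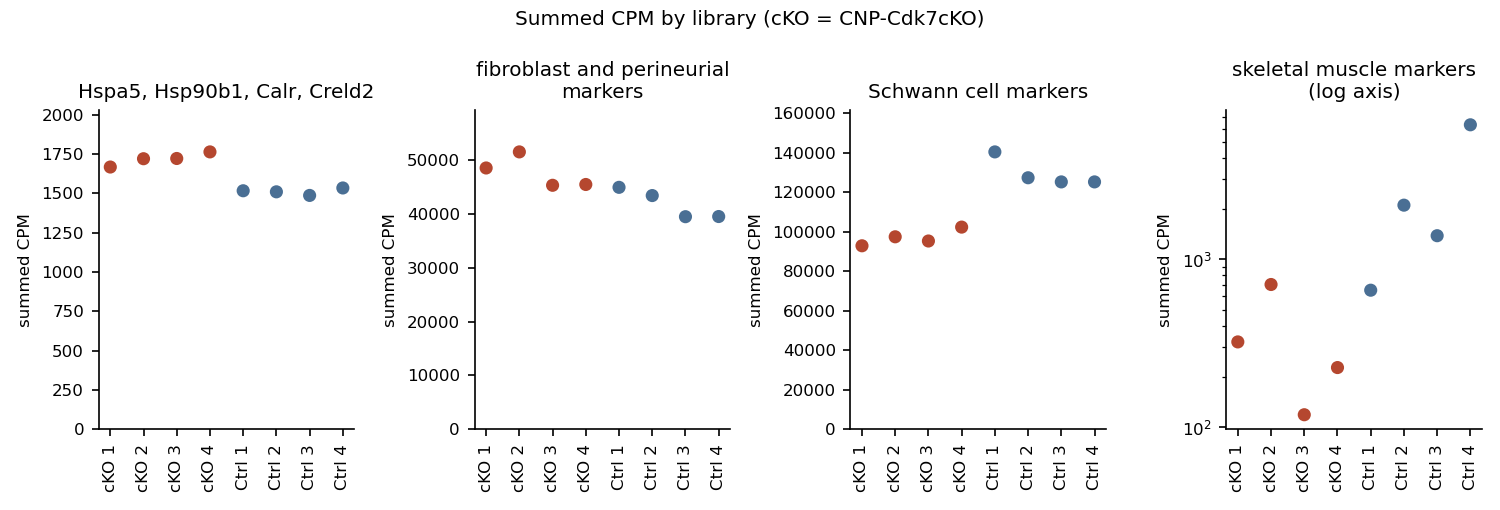
Summed CPM in each library (points, with CNP-Cdk7cKO left of Ctrl) of Hspa5, Hsp90b1, Calr and Creld2, of the fibroblast and perineurial markers, of the Schwann cell markers, and of the skeletal muscle markers on a log axis. The ER and fibroblast sums are higher in every CNP-Cdk7cKO library than in any Ctrl library, the Schwann cell sum is lower in each, and the muscle sums overlap.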

How the data were processed

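RNA of 8 sciatic nerve samples at P6 was extracted with RNeasy columns and a DNase step, and stranded libraries of polyadenylated RNA were made from 250 ng, per the labels. The authors deposited 1 table of estimated counts per gene, and STAR, Salmon and GRCm38 appear in the submitters' processing notes. The sources used here give no versions, annotation release or strand setting. Of the deposited estimated counts, 8.29% were not whole, and all were rounded. Of 55487 identifiers, 55141 matched a symbol in GENCODE M21 (GRCm38), which also gave gene coordinates.

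After filterByExpr (count of at least 10, total of at least 15) and TMM scaling, groups were compared by the quasi-likelihood test of edgeR 4.0.16 (R 4.3.3), with Benjamini-Hochberg adjustment over 15056 genes and calls at 0.05. CPM values use TMM library sizes. The steps were tested on simulated counts. The 10 genes and all lists were chosen with earlier results of these data known. All 10 genes are named. From each related list the called genes with the smallest p are named, at most 4, and in a list with no call the 2 most abundant. Serpinh1, Ero1l, Fkbp11, Prdx4, Eif2s1, Hyou1, the UPR sensors, Atf4 and its targets, the other ERSE genes and the cell type markers were named after their values were seen. Promoter windows came from a RefSeq table (GRCm38.p6), which gave 9 of the 10 genes. Alternatives were RLE size factors, no count filter, 1 CPM in 4 libraries, DESeq2 1.42.0 and limma-voom with library quality weights (limma 3.58.1). The name limma-voom stands for that weighted fit throughout. Further alternatives were a replicate block, Xist or muscle markers as a covariate, each library left out, and the Xist-positive libraries alone.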

Additional observations from a re-analysis of the deposited data

How the results depend on the processing

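Hspa5, Hsp90b1, Calr and Creld2 were the 4 genes called higher, with 0 of the 10 lower, under RLE size factors, no count filter, 1 CPM in 4 libraries, DESeq2 and limma-voom. Leaving out 1 library gave 3 to 4 genes called higher (3 without Ctrl 3, where the adjusted p of Hsp90b1 was 0.0502). Over all genes, 468 to 656 were then higher and 654 to 860 lower, against 763 and 994 with every library; the lowest counts came without Ctrl 2, and without Ctrl 3 there were 500 higher. With Xist as a covariate 0 of the 10 genes were called, and 76 of all genes were higher and 167 lower. With muscle markers as a covariate the counts were 0, 94 and 136, and with the Xist-positive libraries alone 0, 37 and 77; there Ctrl 1 is the lone control, assumed to vary like the other group. In these fits the log2 fold changes were 0.18, 0.21 and 0.18 for Hspa5 (adjusted p 0.156, 0.191 and 0.386), 0.15, 0.17 and 0.14 for Hsp90b1 (0.271, 0.337 and 0.495), 0.20, 0.17 and 0.19 for Calr (0.174, 0.373 and 0.39) and 0.28, 0.22 and 0.28 for Creld2 (0.13, 0.339 and 0.255), with standard errors 1.64, 1.84 and 1.74 times as large at the median. Genes that were not called changed sign as follows: Dnajb9 to 0.026 with limma-voom, and between -0.104 and 0.065 over the libraries left out (0.065 without CNP-Cdk7cKO 4 and 0.012 without Ctrl 1); Sdf2l1 to -0.014 and Manf to -0.098 with the muscle covariate; Herpud1 to -0.034 with Xist, -0.008 with muscle and -0.032 with the Xist-positive libraries alone.

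With the replicate block, 682 genes were higher and 926 lower, and Hspa5, Hsp90b1, Calr and Creld2 were called with adjusted p of 0.0233, 0.0366, 0.0198 and 0.0125, while Sel1l, Sec23b and Surf4 were not. Deviations of libraries with the same number had correlations of 0.0438, 0.076, 0.127 and 0.00894 over genes. For libraries with different numbers they ran from -0.156 to 0.168, a range that holds those values. These correlations do not settle whether the numbers pair the libraries. Depth limits Sdf2l1 most, with 150 to 248 counts a library.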
